A study of Mus musculus with 4 samples.

Results

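The clustered protocadherin genes were followed through ATAC-seq of murine glioblastoma (GBM). Members were the protein-coding genes of the GENCODE M21 annotation whose symbol starts with Pcdha, Pcdhb or Pcdhg. This rule found 57 of 21951 protein-coding genes, namely 14 Pcdha, 22 Pcdhb and 21 Pcdhg genes. They lie in this order on chromosome 18, from the Pcdha1 start to the shared Pcdhg end (GRCm38, chr18:36930184-37841873, plus strand). ATAC-seq marks open chromatin by where the Tn5 transposase can cut, and each deposited file lists the peaks of 1 library. The WT group held 2 libraries from C57BL/6 mice that carried intracranial mG7080 tumors, and the Esm1 KO group held 2 libraries from Esm1-deleted mice of that strain with the same tumor line. The Esm1 product, Endocan, is a secreted proteoglycan that endothelial cells of GBM vessels release. The deletion was in the host, so that the injected mG7080 cells, a single line of murine GBM cells, kept the gene in both groups. The labels speak of tumor tissue, the methods of cells freshly isolated from tumors and the study's results of cells grown from the tumors as spheres. The sources used here do not settle which material was sequenced, nor whether host cells could be in it. No library had a peak at the Esm1 promoter, so that this gene gave no check of the labels.

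Clustered protocadherins are cell surface adhesion proteins of neurons, where combinations of isoforms give each cell an identity that lets its own branches recognise and avoid each other. In the Pcdha and Pcdhg clusters each isoform has its own promoter and variable exon, which is spliced to constant exons at the cluster's 3′ end, whereas Pcdhb genes have no shared constant exons. Most isoform promoters are chosen at random in each neuron through methylation, CTCF and cohesin, while the C-type isoforms (Pcdhac1, Pcdhac2, Pcdhgc3, Pcdhgc4 and Pcdhgc5) lie at the 3′ end of their clusters and are used more uniformly.

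A promoter was the stretch within 1000 bp of the start of the gene's first exon, and it was called open in a library when a peak touched it. Peak height is the number of read ends stacked at the peak's summit, and it was divided by the library's genome background, the lowest local background behind any peak, where libraries are set side by side. The libraries held between 63000 peaks (WT tumor 1) and 100088 (WT tumor 2), with 82975 in KO tumor 1 and 85418 in KO tumor 2. The genome background ran from 4.41 to 6.85 read ends, and the lowest height called from 13 to 16, or 2.34 to 2.94 times that background. A promoter below this level was not detectable at this depth. WT tumor 2 was the deepest library by both measures and WT tumor 1 the shallowest. Numbers of mapped reads are not given in the peak lists.

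Only 6 of the 57 members were open in all 4 tumors (10.5%), against 57.8% of all protein-coding genes. No library had a peak at 37 members (64.9%), where the share over all genes was 35.5%. Another 9 members were open in 1 library, 3 in 2 libraries and 2 in 3 libraries. The members open throughout were the 5 C-type isoforms and Pcdhga12, the last variable isoform of the Pcdhg array before them. Per library, 8 and 17 members were open in WT tumors 1 and 2, and 12 and 8 in KO tumors 1 and 2.

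**Figure D1:**
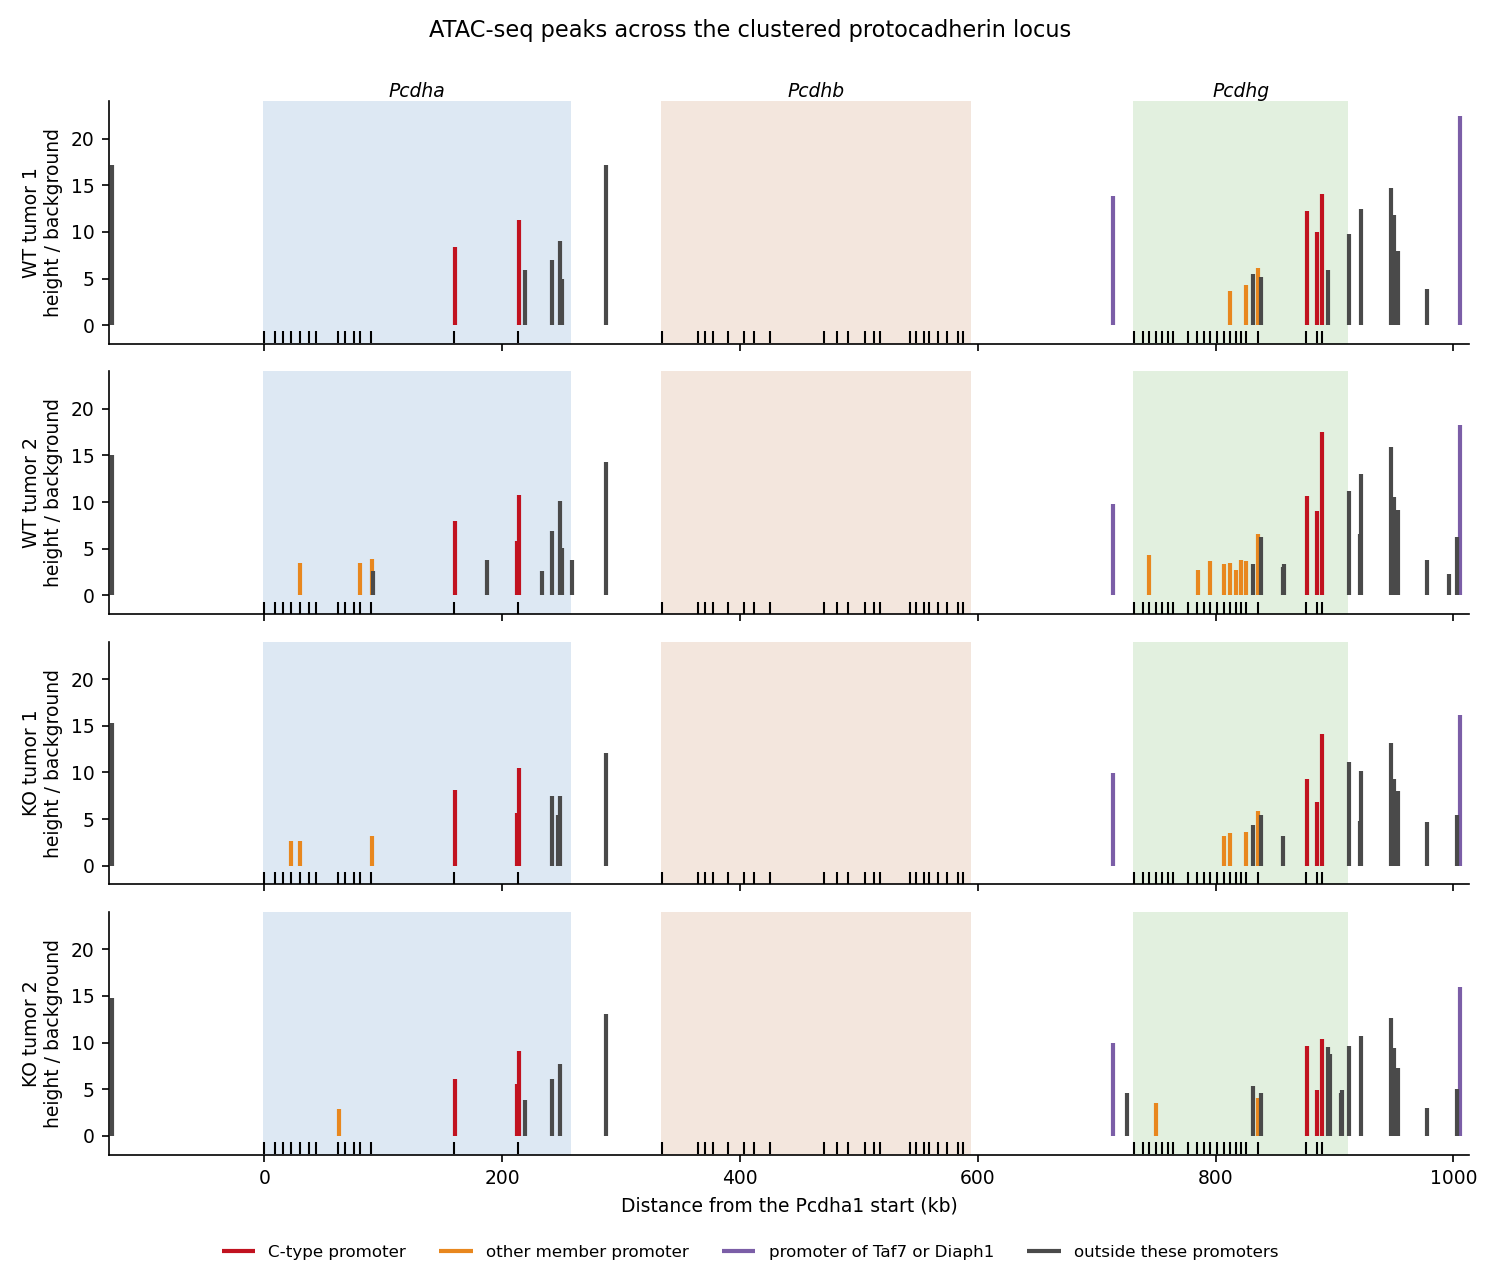
Peaks across the locus in each tumor. The x axis is the distance from the Pcdha1 start in kb and the y axis the peak height over the library's genome background; black ticks mark the 57 gene starts, shading marks the 3 clusters, and the colour tells the kind of region. All 4 tumors show peaks at the C-type promoters and after the Pcdhg end, and none within the Pcdhb array.

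Among the members' promoters, those of the C-type isoforms carried the tallest peaks. At Pcdhgc5, the last isoform of the Pcdhg cluster, the height was 62 and 120 read ends in WT tumors 1 and 2 and 85 and 70 in KO tumors 1 and 2. At Pcdhgc3 it was 54 and 73 in the WT tumors and 56 and 65 in the KO tumors. Pcdhgc5 was thus the taller of this pair in every tumor. Pcdhgc4, the Pcdhg isoform that is known to be needed for the survival of many neurons, had heights of 44 and 62 in WT tumors and 41 and 33 in KO tumors. Its height in KO tumor 2 was the lowest among the 5 C-type promoters in any library. In the Pcdha cluster, Pcdhac2 had heights of 50 and 74 in WT tumors and 63 and 61 in KO tumors. Pcdhac1 had 37 and 55 in WT tumors and 49 and 41 in KO tumors. Pcdhac2 exceeded Pcdhac1 in each of the 4 tumors. Pcdhga12 was lower than all of these in every library, with heights of 27 and 45 in WT tumors and 35 and 27 in KO tumors.

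In order of the mean height over background, Pcdhgc5 (14.0) came first, followed by Pcdhgc3 (10.5), Pcdhac2 (10.4), Pcdhgc4 (7.69), Pcdhac1 (7.66) and Pcdhga12 (5.63), each over 4 libraries. Pcdhgc3 and Pcdhac2 changed places between tumors of the same group, so that this pair could not be ordered beyond its spread. Pcdhgc4 was taller than Pcdhac1 in both WT tumors and lower in both KO tumors, a switch that was not tested. Against other open promoters these peaks were modest. Pcdhac1 stood at percentiles of 16.5, 21.4, 22.3 and 12.3 among all open promoters of WT tumors 1 and 2 and KO tumors 1 and 2. Pcdhga12 stood at 8.33, 15, 11.6 and 4.18. Pcdhgc5 stood highest of the members, at 46.8, 85.5, 65.4 and 34.6, and thus above the median open promoter in WT tumor 2 and KO tumor 1 only. The background around the peaks also rose toward the 3′ end of Pcdhg. The local background at Pcdhgc5 was 4.01, 4.25, 3.76 and 3.08 times the genome background in WT tumors 1 and 2 and KO tumors 1 and 2. At Pcdhac1 it was 1.14, 1.21, 1.10 and 1 times. By the deposited fold, a ratio of height to local background, Pcdhac1 was the highest member in every tumor (6.29, 6.01, 6.56 and 5.45). Pcdhgc5 had folds of 3.37, 4.02, 3.63 and 3.27, so the order above holds for height over the genome background only.

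Pcdha and Pcdhg were compared over the members open in all 4 tumors only. These were the C-type isoforms of Pcdha (n = 2 genes), and the C-type isoforms of Pcdhg with Pcdhga12 (n = 4 genes). The median log2 height of the former minus that of the latter was −0.18 and −0.08 in WT tumors and 0.21 and 0.11 in KO tumors. The mean was 0.02 (exact sign-flip permutation test over the 4 libraries, two-sided p = 0.875, where the smallest possible p is 0.125). With the deposited fold, which divides by the local background, Pcdha was higher in all 4 libraries, with a mean of 0.52 (exact sign-flip permutation test, p = 0.125, the smallest possible). Pcdhb had no open promoter and could not enter this comparison.

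**Figure D2:**
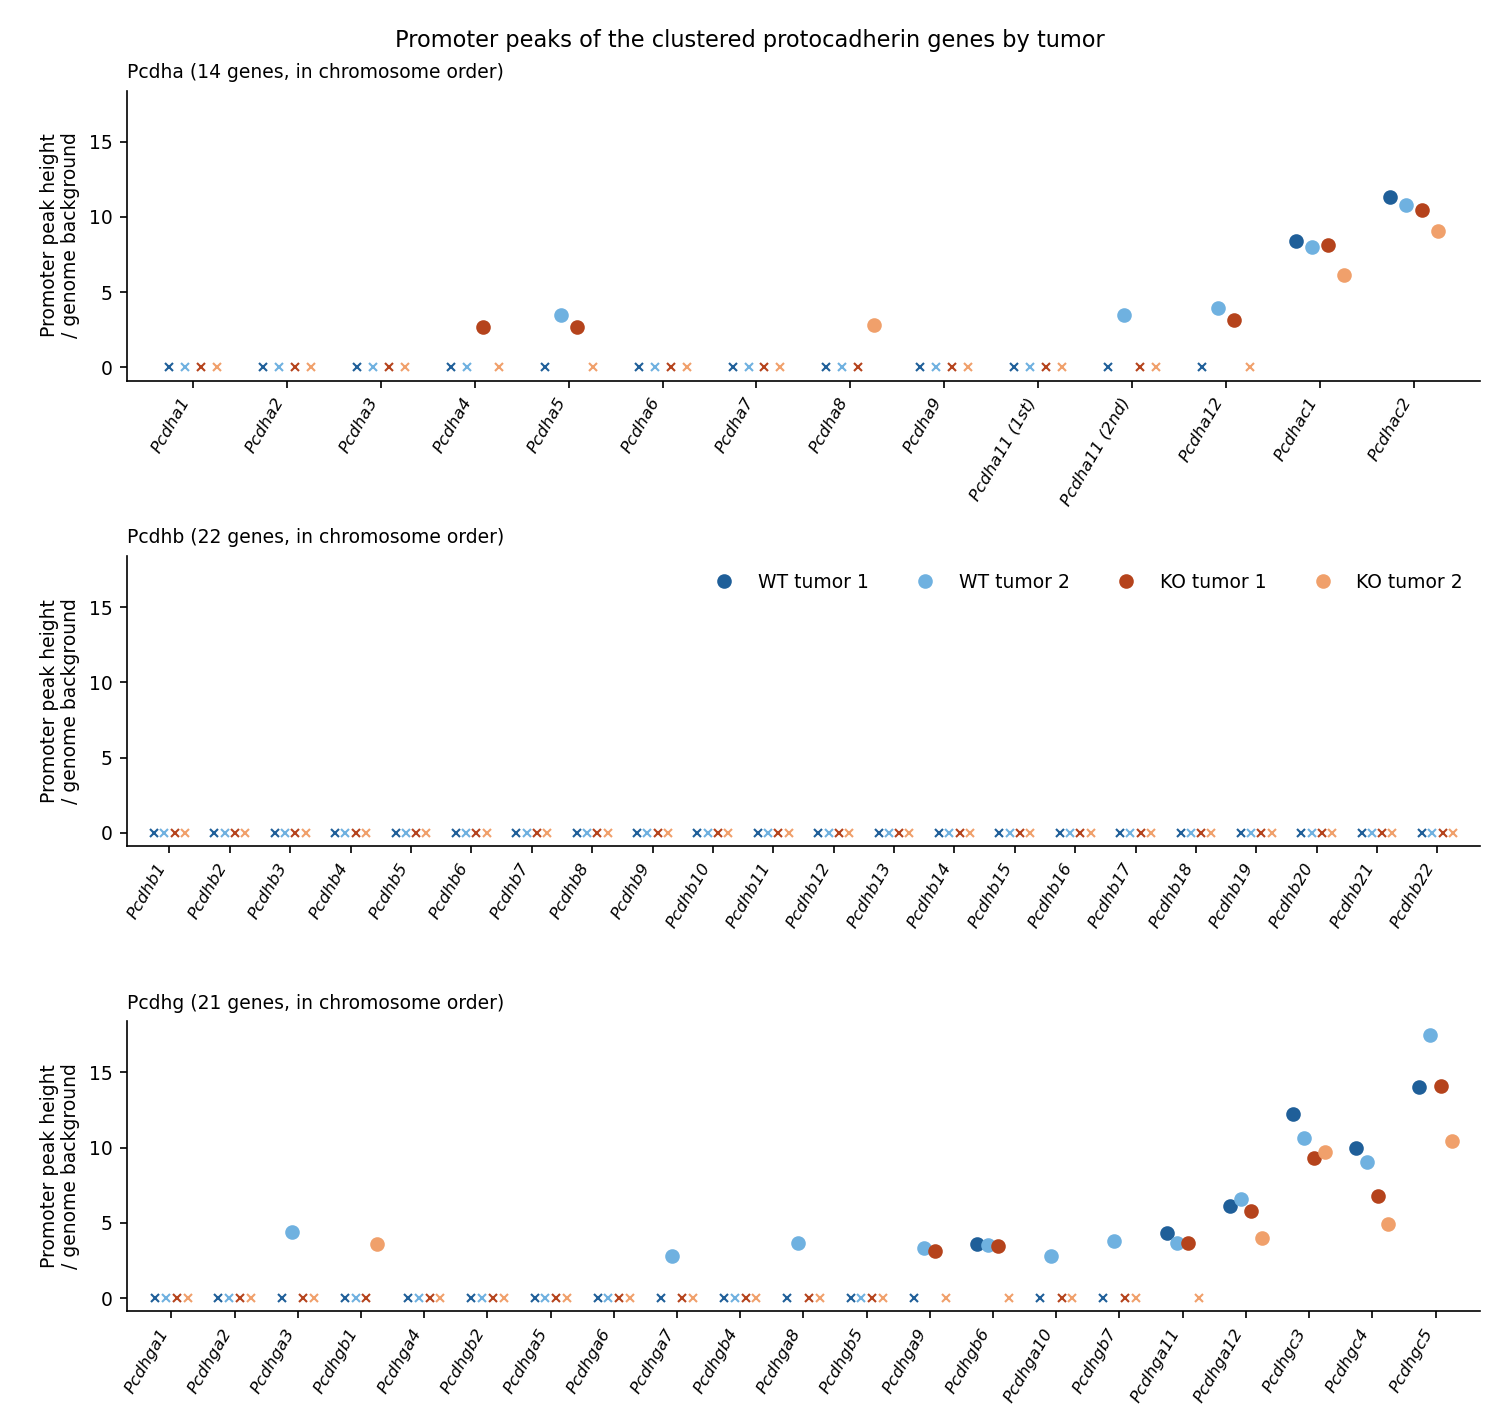
Promoter peak height over the genome background (y axis) for every member in chromosome order (x axis), with 1 point per tumor and crosses at 0 where no peak was called; the 2 genes that GENCODE names Pcdha11 are marked in order. Members open in every tumor sit at the right end of the Pcdha and Pcdhg panels, and all 22 Pcdhb genes carry crosses only.

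Outside the C-type isoforms, 52 members remained, of which 3 and 12 were open in WT tumors 1 and 2 and 7 and 3 in KO tumors 1 and 2. Their heights were low, apart from those of Pcdhga12. They ranged from 16 to 27 read ends in WT tumor 1, from 19 to 45 in WT tumor 2, from 16 to 35 in KO tumor 1 and from 19 to 27 in KO tumor 2. The lowest C-type height was 37, 55, 41 and 33 in the same libraries. In height, the C-type promoters and the other members thus did not overlap within any tumor. By the deposited fold they did. Pcdhgc4 (2.96, 2.72, 2.32 and 2.17 in the same order) lay below Pcdhga12 (3.60, 3.50, 3.48 and 2.55) in every tumor.

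Among the 12 Pcdha isoforms that are not C-type, 5 were open in some tumor and none in all. Pcdha4 had a peak of height 16 in KO tumor 1 alone. Pcdha5 had a height of 24 in WT tumor 2 and 16 in KO tumor 1. Pcdha8 was open in KO tumor 2 alone, with a height of 19. The peaks in the KO tumors were thus close to the lowest height called in them, 15 and 16. GENCODE M21 gives the symbol Pcdha11 to 2 genes, of which the first lies where RefSeq places Pcdha10. The second (start at chr18:37010712) had a peak of 24 in WT tumor 2, and the first (start at chr18:37005203) had none. Pcdha12 had heights of 27 in WT tumor 2 and 19 in KO tumor 1. Pcdha1, Pcdha2, Pcdha3, Pcdha6, Pcdha7, Pcdha9 and the first Pcdha11 gene had no peak in any tumor. The Pcdha4 window also holds starts of the antisense gene Gm38225 and the read-through gene Gm42416, the Pcdha12 window that of the antisense gene Gm10545, and the Pcdhga8 window described next that of the antisense gene Gm37165. ATAC-seq carries no strand, so a peak there cannot be given to either gene of such a pair.

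Among the 18 Pcdhg isoforms that are not C-type, 10 were open in some tumor. Pcdhgb6 had heights of 16 and 24 in WT tumors 1 and 2 and 21 in KO tumor 1. Pcdhga11 had 19 and 25 in WT tumors 1 and 2 and 22 in KO tumor 1. Both lacked a peak in KO tumor 2. Pcdhga9 had a height of 23 in WT tumor 2 and 19 in KO tumor 1. Pcdhga3 (30), Pcdhgb7 (26), Pcdhga8 (25), Pcdhga7 (19) and Pcdhga10 (19) had a peak in WT tumor 2 alone, at the heights given. Pcdhgb1 had a peak of 24 in KO tumor 2 alone. No peak was called at Pcdhga1, Pcdhga2, Pcdhga4, Pcdhgb2, Pcdhga5, Pcdhga6, Pcdhgb4 or Pcdhgb5. Open promoters were more frequent in the 3′ part of the array. Of the 9 isoforms from Pcdhga1 to Pcdhga7, 3 were open in some tumor, and of the 9 from Pcdhgb4 to Pcdhga12, 7 were, a split made after the values were seen. Pcdhga genes were open in 7 of 12 cases and Pcdhgb genes in 3 of 6. Pcdhgb8, which GENCODE lists as a polymorphic pseudogene and which is therefore no member, had peaks of 24 and 23 in WT tumors and 26 and 36 in KO tumors at its start.

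WT tumor 2, the deepest library, held most of these partial calls. Its genome background was 6.85 read ends, and 12 non-C-type isoforms were open in it. In KO tumor 2 the background was 6.71 and 3 were open, and in KO tumor 1 it was 6.03 and 7 were open. WT tumor 2 had 6 isoforms open in no other tumor, KO tumor 2 held 2, KO tumor 1 held 1 and WT tumor 1 held 0. Of the 12 non-C-type isoforms open in WT tumor 2 and the 7 in KO tumor 1, 6 were shared, which is 50% of the former and 85.7% of the latter. WT tumor 1 shared its 3 isoforms with WT tumor 2 and with KO tumor 1. When each library was reduced to its 63000 strongest peaks, the non-C-type calls fell from 7 to 1 in Pcdha and from 18 to 8 in Pcdhg over the 4 libraries, and Pcdhga12 was called in 3 tumors. The C-type calls fell from 20 to 18, both of the lost calls being at Pcdhgc4. A threshold of 5 on −log10 q left 3 calls in Pcdha, 9 in Pcdhg and 18 at C-type promoters. The part that depth had in the difference between tumors was not tested further.

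The 45 promoter peaks of the members had their summits close to the annotated starts. The median summit lay 83 bp downstream of the start, 36 of the 45 lay downstream, and 33 lay within 250 bp. Relative to the start, summits ranged from −142 bp (Pcdhac1 in KO tumor 2) to 815 bp (Pcdhac2 in WT tumor 1). At Pcdhga12 all 4 summits lay inside the variable exon, between 358 and 410 bp after the start. At Pcdhgc5 the summits lay at −121 and −85 bp from the start in WT tumors and −45 and −87 bp in KO tumors.

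The Pcdhb array was closed in every tumor. None of its 22 members, from Pcdhb1 to Pcdhb22, had a promoter peak, and no peak lay anywhere in the array. The stretch with no peak in any library ran over 425 kb (chr18:37218539-37643765), from a peak after the Pcdha cluster to the Taf7 promoter. It held all 22 Pcdhb genes and Slc25a2, which encodes a mitochondrial ornithine carrier and was itself closed in all 4 tumors. Among 122140 stretches between neighbouring peak regions in the genome, 250 were as long, and 22 were as long and held as many protein-coding gene starts. Within each single library the closed stretch was equally long, at 425 kb in all 4, so that the array stayed closed in the deepest library too.

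Near-identical sequence can hide peaks, since reads that map to several places may be lost or shared among copies. The share of 75-base stretches found at a single place in the genome was therefore measured in each promoter window. In Pcdhb promoters this share lay between 93.8% and 100%, and it was 100% in 14 of 22 genes. In Pcdha it lay between 88.9% and 100% with a median of 94.4%, and in Pcdhg between 94.3% and 100%. The 5 C-type windows were all at 100%. This measure counts exact copies only, so that a 75-base stretch differing from another copy at any base counts as found at a single place. Loss or sharing of reads among similar copies was not tested.

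CpG content separates open from closed promoters in the genome, and the clusters differed in it. Observed over expected CpG within 500 bp of the start had a median of 0.734 over genes open in all tumors and 0.175 over genes open in none. The median was 0.682 in Pcdha, 0.594 in Pcdhg and 0.378 in Pcdhb. By this measure the Pcdha promoters lay near the open genes, but few were open. Of genes with a ratio from 0.6 to 0.8, 91.5% of 5609 were open in all tumors, against 3 of 21 members. From 0.4 to 0.6 it was 70.0% of 3075 genes against 1 of 21 members, and from 0.2 to 0.4 it was 22.7% of 3793 genes against 2 of 13 members. Pcdhgc5, the tallest member, had a ratio of only 0.233, and Pcdhga12 one of 0.318. The other C-type promoters had ratios of 0.797 (Pcdhgc3), 0.681 (Pcdhac2), 0.670 (Pcdhgc4) and 0.564 (Pcdhac1). GC content was higher in C-type windows (median 55.8%) than in Pcdha (45.4%), Pcdhg (47.1%) or Pcdhb windows (41.3%), and the median over all genes was 54.7%.

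**Figure D3:**
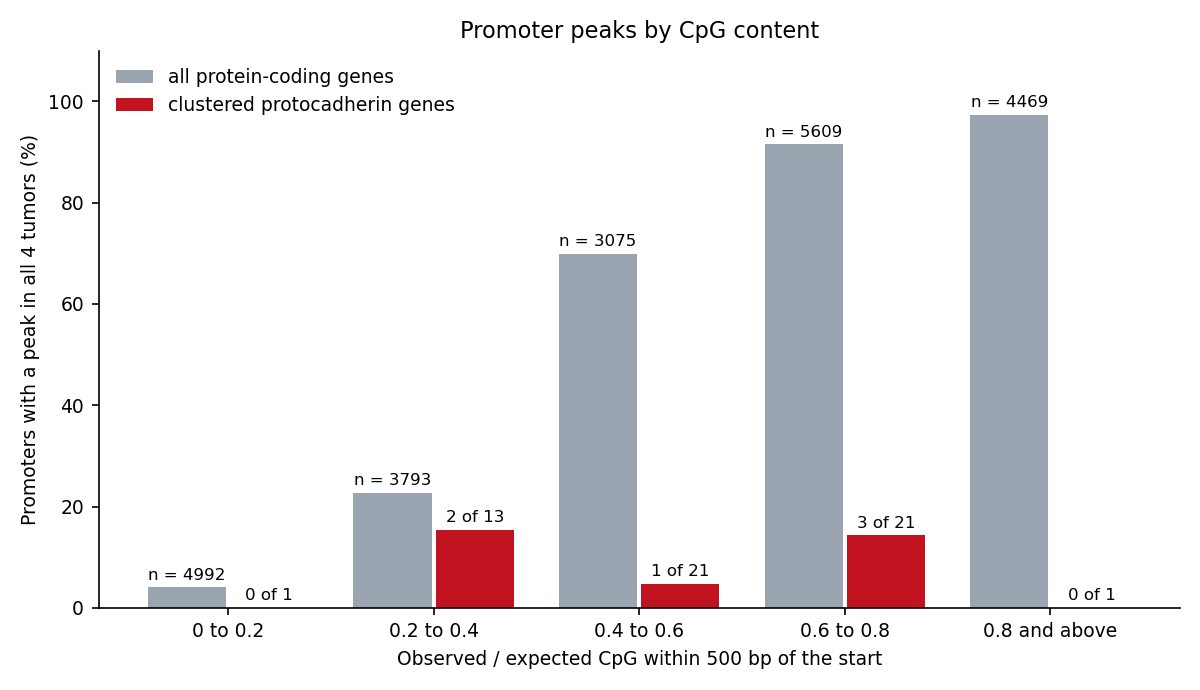
Share of promoters with a peak in all 4 tumors (y axis, percent) by observed over expected CpG within 500 bp of the start (x axis), for all protein-coding genes (grey, with n) and the clustered protocadherin genes (red, with the number open of the number in the bin). Over all genes the share climbs to 97.4% in the top bin, and among members it reaches 3 of 21 in the bin from 0.6 to 0.8.

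CTCF is the DNA-binding protein that anchors loops between isoform promoters and distal enhancers. The core letters of its motif were searched on both strands within 1000 bp of each start. They occurred in 10 of 14 Pcdha promoters, 6 of 21 Pcdhg promoters and 3 of 22 Pcdhb promoters, against 29% of all protein-coding promoters. Among the 12 Pcdha isoforms that are not C-type, 9 held them, and 4 of the 5 isoforms with a peak did. Of the members open in all tumors, only Pcdhac1 held the letters. The letters CGCT, the core of a conserved element of these promoters, occurred on either strand within 300 bp upstream of the start in 55 of 57 members and in 63.2% of all promoters. A match of letters does not show a bound site, and a match of CGCT does not show that the whole element is present.

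Peaks also lay between and after the clusters. From the Pcdha1 promoter to the Diaph1 start, 30 merged regions lay outside the members' promoters, of which 16 and 23 had a peak in WT tumors 1 and 2 and 17 and 20 in KO tumors 1 and 2. A peak in all 4 tumors was found in 13 of the 30, against 39.4% of 122166 regions over the genome. The mean number of regions with a peak was 1 lower in KO than in WT tumors (exact permutation test over the 4 libraries, two-sided p = 1, where the smallest possible p is 0.333).

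Between Pcdha and Pcdhb, a single region was open in all tumors, 30.02 kb after the Pcdha end (chr18:37216822-37218538). Its height was 76 and 98 in WT tumors and 73 and 88 in KO tumors, or 14.2 times the genome background on average. This intergenic peak exceeded every C-type promoter in WT tumor 1 and in KO tumor 2, while Pcdhgc5 was taller in WT tumor 2 and KO tumor 1. An enhancer of the Pcdha promoters is known to lie downstream of the cluster, but no file used here gives its position. In the constant exon part of Pcdha, 2 regions were open in all tumors, both at starts of noncoding genes on the opposite strand. The region at Gm10544 (chr18:37178212-37178916), had heights of 40 and 69 in WT tumors and 45 and 52 in KO tumors. The region at Gm38097 (chr18:37172167-37172699), had heights of 31 and 47 in WT tumors and 45 and 41 in KO tumors.

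After the Pcdhg end the locus was densely covered, with 7 and 10 peaks in WT tumors and 9 and 8 in KO tumors over 93.6 kb, and 7 regions there were open in all tumors. Most of this stretch lies in Diaph1, which encodes a formin that nucleates actin filaments and reads toward the Pcdhg genes. The tallest was the Diaph1 promoter itself (chr18:37934741-37935913), with heights of 99 and 125 in WT tumors and 97 and 107 in KO tumors. Inside Diaph1, 35.6 kb after the Pcdhg end, a region (chr18:37876988-37877929) had heights of 65 and 109 in WT tumors and 79 and 85 in KO tumors. It exceeded the Pcdhgc5 promoter in WT tumor 1 and KO tumor 2. A region 10.4 kb after the Pcdhg end (chr18:37851750-37852871) had heights of 55 and 89 in WT tumors and 61 and 72 in KO tumors. Regulatory elements of the Pcdhb and Pcdhg clusters are known to lie downstream of Pcdhg, and their positions were likewise not in the files used here. Of the 13 regions open in all tumors, 2 held the CTCF core letters within 250 bp of the summit, against 14.2% of such regions over the genome.

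Some regions were found in only some tumors. In the 21.4 kb of the Pcdhg constant exons, KO tumor 2 had 4 peaks, WT tumor 1 had 1 and the other two tumors had 0. The strongest of these (chr18:37823989-37825177), whose summit lies in a retained intron of Pcdhgc5 and in an exon of the noncoding gene Gm38182, had a height of 64 in KO tumor 2 and 26 in WT tumor 1. The next (chr18:37825669-37826512) had a height of 59 in KO tumor 2 alone, followed by peaks of 31 and 33 in the same tumor. KO tumor 2 and WT tumor 1 are also the libraries with the lowest numbers of open non-C-type isoforms. Because the tumors of each group differed, these peaks did not separate WT from KO tumors.

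The question that the design puts to the locus is whether its chromatin differed between tumors of WT and Esm1 KO hosts. No member was open in both WT tumors and neither KO tumor, or in both KO tumors and neither WT tumor. Over all genes these shares were 0.146% and 0.282%. At a threshold of 5 on −log10 q, or with equal numbers of peaks, 1 member, Pcdhgc4, was open in both WT tumors and neither KO tumor. The share over all genes was not counted at these settings, so this call has no value to be set beside. In the full lists Pcdhgc4 had a peak in both KO tumors, at folds of 2.32 and 2.17. The mean number of open members was 2.50 lower in KO than in WT tumors (exact permutation test, two-sided p = 1, smallest possible p = 0.333). It was 5 lower at the stricter threshold and 2.50 lower with equal numbers of peaks, each with an exact permutation p of 0.333, the smallest possible. Without WT tumor 2 the difference was 2.00 in the other direction.

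Heights of the 6 members open in all tumors were compared by limma, on log2 height centred on each library's median over the 12698 promoters with a peak in all 4. Of these promoters 0.0158% passed an adjusted p of 0.05, and no member did. Pcdhgc4 had the largest difference, −0.61 ± 0.23 (SE) on the log2 scale (KO minus WT). Its p from limma was 0.019 before and 0.996 after adjustment, and no other member had a lower unadjusted value. Over the genome background its height was 9.97 and 9.05 in WT tumors and 6.80 and 4.92 in KO tumors. On this scale the groups did not overlap, with KO lower, at 4 of the 6 members (Pcdhgc4, Pcdhgc3, Pcdhac2 and Pcdhga12), as they did at 27.3% of all promoters tested. The differences were −0.28 ± 0.28 for Pcdhga12, −0.26 ± 0.17 for Pcdhgc5, −0.16 ± 0.16 for Pcdhgc3, −0.11 ± 0.23 for Pcdhac1 and −0.08 ± 0.16 for Pcdhac2 (log2, SE; n = 2 tumors per group, limma adjusted p between 0.996 and 0.997). All 6 estimates were below 0, with a median of −0.21, beside a median of −0.0038 over all promoters tested.

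The size of these differences, and the direction at some members, depended on single libraries. Without KO tumor 2 the median of the same 6 members was −0.012, Pcdhgc4 was at −0.35, and Pcdhac1, Pcdhac2 and Pcdhga12 turned to values above 0. Without KO tumor 1 the median was −0.44, and Pcdhgc4 (−0.88, adjusted p = 0.040, limma) and Pcdhgc5 (−0.52, adjusted p = 0.031) passed the threshold, as did 221 of 12770 promoters in that comparison, in which KO tumor 2 was assumed to vary like the WT tumors. With the deposited fold in place of height, which divides by the local background, the median was −0.0047, with 3 members above 0 and 3 below and Pcdhgc4 at −0.23. Marker promoters differed between these libraries too, and not in 1 direction. In the sums that follow, a marker without a peak counts as 0. The summed height over background of the 4 astrocyte markers was 8.38 and 10.5 in WT tumors and 13.9 and 15.6 in KO tumors. Aqp4 had no peak at its annotated start in any tumor, and Aldh1l1 had one in KO tumor 1 alone (3.65). Gfap had 4.08 and 5.26 in WT tumors and 6.31 and 9.68 in KO tumors. Slc1a3 had 4.30 and 5.26 in WT tumors and 3.98 and 5.96 in KO tumors, so that its groups overlapped. The summed height of the 7 oligodendrocyte lineage and glioma markers was 39.6 and 22.5 in WT tumors and 23.9 and 46.8 in KO tumors. Pdgfra and Cspg4 had no peak within the window at their annotated start in any tumor, and other starts of these genes were not read. KO tumor 2 had the highest sum of both lists. It had the lowest sum of the 7 neuronal markers, at 72.7 and 64.1 in WT tumors and 64.2 and 57.7 in KO tumors. The sum of the 5 mature oligodendrocyte markers was 37.8 and 15.8 in WT tumors and 15.6 and 15.2 in KO tumors, also lowest in KO tumor 2. What part any of these lists had in the differences above was not tested.

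**Figure D4:**
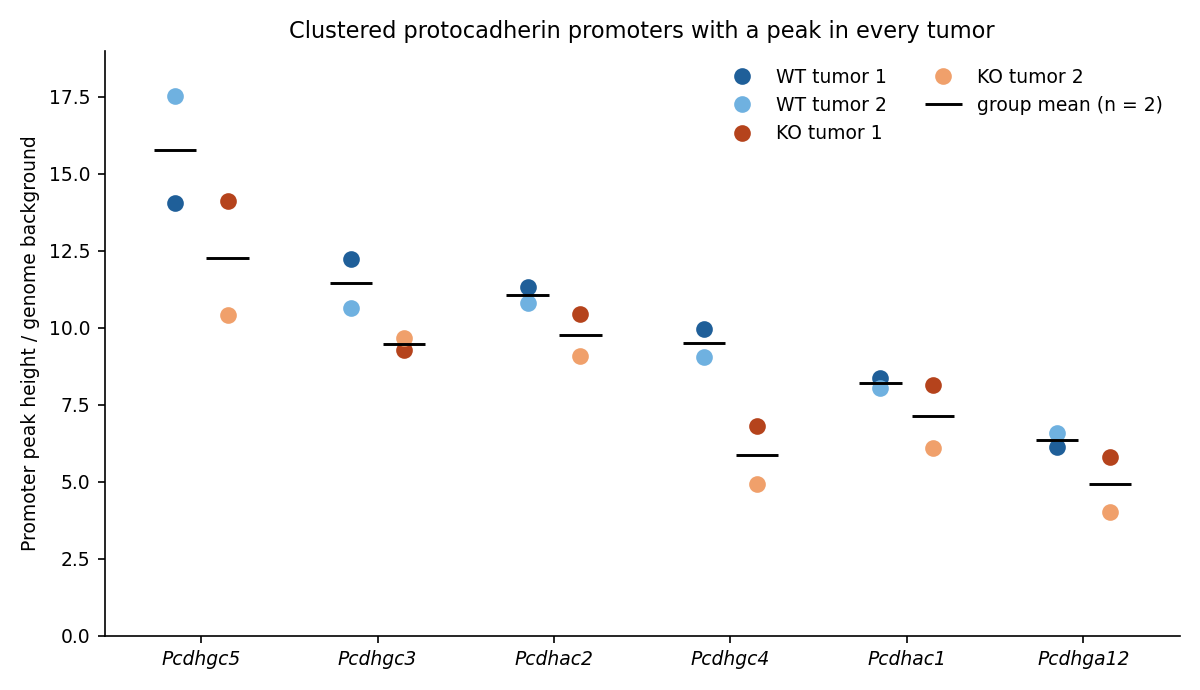
Promoter peak height over the genome background (y axis) at the 6 members open in every tumor, with 1 point per tumor and a bar at the mean of each group of 2. Only at Pcdhgc4 is the gap between the groups wide against the spread within them, with 9.97 and 9.05 in WT tumors and 6.80 and 4.92 in KO tumors.

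Over regions, 48089 had a peak in all tumors and 0.0395% of them passed an adjusted p of 0.05 in limma. None of the 19 regions of the locus did. The lowest unadjusted p was 0.012 at the Pcdhgc4 promoter (limma), 1 of the 19 below 0.05. Over all regions tested, 1480 of 48089 had an unadjusted limma p below 0.05. The region 30.02 kb after Pcdha differed by −0.22 ± 0.24 (log2, SE), the Diaph1 promoter by −0.24 ± 0.26, the region 35.6 kb after Pcdhg by −0.16 ± 0.24, the region 10.4 kb after Pcdhg by −0.19 ± 0.23 and the Taf7 promoter by −0.13 ± 0.23. Each of these differences was smaller than its standard error. Of the 19 regions, 15 were lower and 4 higher in KO tumors, with a median of −0.16 beside −0.0041 over all regions tested. The 15 include the promoters of the 6 members already described, so that this count partly repeats their result. The 4 higher regions all lay outside member promoters. The share of lower regions over the genome was not counted. Scaled by the genome background, the median of all promoters itself moved to −0.11, and that of the 6 members to −0.32.

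**Figure D5:**
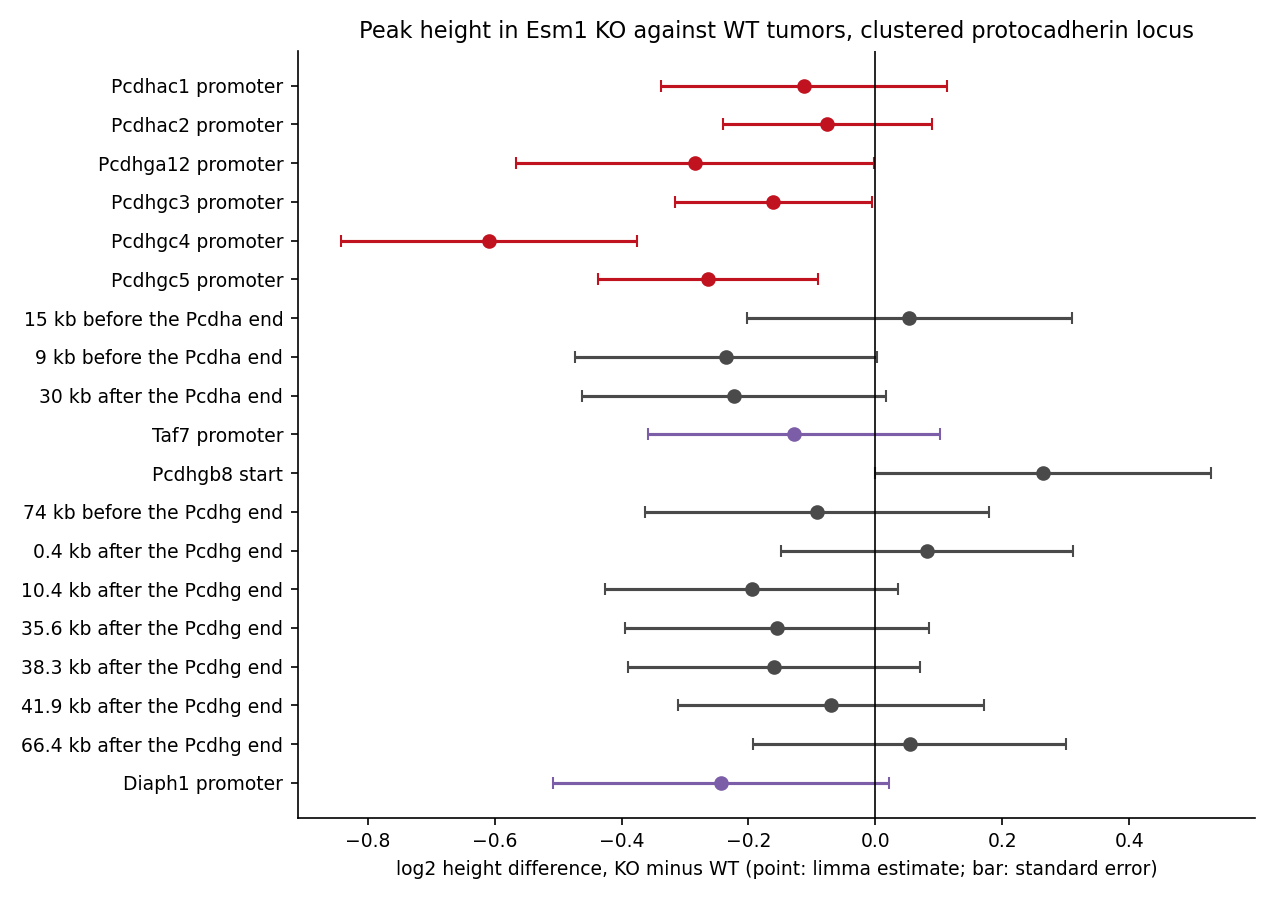
Difference in log2 peak height, KO minus WT (x axis), at the 6 open member promoters (red), at the promoters of Taf7 and Diaph1 (purple) and at the other regions of the clusters and after them that had a peak in every tumor (grey). Points are limma estimates and bars standard errors, and Pcdhgc4 at −0.61 ± 0.23 lies farthest from 0.

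The genes around the clusters were open on both sides. Zmat2, which encodes a zinc finger protein of the spliceosome, had promoter heights of 67 and 90 in WT tumors and 65 and 83 in KO tumors. Taf7, a subunit of the general transcription factor TFIID that lies between Pcdhb and Pcdhg, had 61 and 67 in WT tumors and 60 and 67 in KO tumors. Zmat2 was taller than Pcdhgc5 in WT tumor 1 and KO tumor 2 and lower in the other two tumors.

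The non-clustered protocadherins, single genes elsewhere in the genome that encode related adhesion proteins, were mostly open. Of 12 listed, 11 were open in all tumors and the remaining gene, Pcdh12, in KO tumor 1 alone (a gene picked after its value was seen). Pcdh9 had heights of 113 and 150 in WT tumors and 128 and 136 in KO tumors. Pcdh1 had 76 and 88 in WT tumors and 84 and 75 in KO tumors. Pcdh7 had 66 and 96 in WT tumors and 80 and 72 in KO tumors. Pcdh8 had 61 and 103 in WT tumors and 78 and 86 in KO tumors. The mean height over background of the 11 open genes ran from 6.92 to 22.3 with a median of 13.2, and that of the 6 open clustered genes from 5.63 to 14.0 with a median of 9.05.

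Of 16 genes for factors that shape or silence the clusters, 13 were open in all tumors. These held Ctcf, with heights of 91 and 113 in WT tumors and 108 and 127 in KO tumors, and the cohesin genes Rad21, Smc1a and Smc3. Trim28, Dnmt1 and Stag1 had no peak within 1000 bp of the annotated start in any tumor, and were picked for this after their values were seen. Of 13 genes for signalling partners, 12 were open in all tumors. Among these, Fyn, a Src family kinase, had 100 and 126 in WT tumors and 108 and 118 in KO tumors. Ptk2 and Ptk2b, kinases that clustered protocadherins are known to inhibit, and Wasf1, an actin regulator of the WAVE complex, were open as well. The exception, Celsr1, was open in KO tumor 2 alone.

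Neuronal, glial and other marker promoters were read as a check of what the libraries hold. Each marker was read in 1 window at its annotated start, and closed means that no peak touched this window. With windows at all annotated starts, 13675 protein-coding genes had a peak in all tumors instead of 12698. The markers were not read at those further starts. In all tumors 4 of 7 neuronal markers (Map2, Snap25, Tubb3 and Syt1) were open and 3 (Rbfox3, Gad1 and Slc17a7) were closed. Of 7 markers of the oligodendrocyte lineage and glioma, 4 (Sox2, Nes, Olig1 and Olig2) were open in all tumors, and so were 2 of 4 astrocyte markers (Gfap and Slc1a3). No marker of microglia and macrophages (6 genes) was open in all tumors, 1 of 5 endothelial markers was, and the 3 T cell markers were closed in all. Mbp and Cnp, genes of mature oligodendrocytes, were open in all tumors, and Mag and Mog, which belong to the same cells, were open in WT tumor 1 alone. What part this had in the low number of open isoforms in WT tumor 1 was not tested. In bulk libraries a smaller share of cells with an open promoter and less open chromatin in each cell cannot be told apart, so that a weak isoform peak does not show in how many cells the promoter was open.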

How the data were processed

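ATAC-seq peak lists of 4 libraries were used, grouped and numbered by the sample titles; nothing in the labels ties tumors of the same number, and each library was deposited as its own list. The file of KO tumor 2 is named by another pattern than the other 3, which the labels do not explain. MACS2, HOMER and mm10 are named in the submitters' processing notes; the methods name Trimmomatic, Bowtie2 with up to several alignments per read, removal of mitochondrial reads and duplicates, and Genrich, and do not state a Tn5 shift. The deposited score, the deposited fold (a ratio of height to local background) and the deposited −log10 p-value and −log10 q-value follow the arithmetic of MACS2, so the authors tested height against a Poisson background within each library. The lowest −log10 q was 1.3.

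From fold and p-value the whole peak height was recovered (tolerance of 0.001 on −log10 p; 0 peaks were not recovered). Promoters were windows of 1000 bp on either side of the start of the gene's 5′-most annotated exon (GENCODE M21, GRCm38). Regions were peaks of all libraries merged where they shared 1 bp. log2 heights, centred on the library median, were tested by limma 3.58.1 (R 4.3.3) with a mean-variance trend and Benjamini-Hochberg adjustment over all promoters or regions, and tested on simulated data. Single counts had exact permutation tests. Alternatives changed the window, threshold, number of peaks, scaling, trend and libraries. Named were members by openness, height, test rank, C-type and position, their neighbours, the opening members of each list and the 5 tallest outside regions. The members and lists were chosen with earlier results of these data known. Base sequences are not printed, and 1 marker gene is not reported here. P-values measure only the spread between these libraries.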

Additional observations from a re-analysis of the deposited data

How the results depend on the processing

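Window size, the set of starts and the summit position left every count of open members as it was, and the Pcdhb array had no peak under any alternative. Of 257 alternative values, 232 kept their direction, side of the threshold or size. Some of these could not change direction or size, because a replicate block or the lack of a trend leaves each log2 difference as it was. Their number is thus no measure of how stable the results were. A threshold of 5 on −log10 q, or equal numbers of peaks, left 4 members open in all tumors instead of 6 and gave 1 member (Pcdhgc4) open in WT tumors only instead of 0. The mean number of open members then differed by −5 and −2.50. With a library left out, the members open in WT only ranged from 0 to 6 and those open in KO only from 0 to 2 (2 without KO tumor 1, 1 without KO tumor 2), and the mean number of open members differed by −7.00 to 2.00. The number of regions outside promoters differed by −4.50 to 2.50, with 0.50 without KO tumor 1 and 2.50 without WT tumor 2. The median difference between Pcdha and Pcdhg ranged from −0.049 to 0.38, was −0.062 with absent peaks set to the lowest height called, and was 0.52 with the deposited fold.

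The median difference of the members with a peak in every library used ranged from −0.44 to 0.0052 with a library left out (0.0052 over 8 members without KO tumor 2, where the same 6 had −0.012), with 0 to 2 members past the threshold, and was −0.0047 with the deposited fold. With the fold, Pcdhac1 (0.066), Pcdhac2 (0.20) and Pcdhgc5 (0.014) lay above 0. With a library left out, Pcdhac1 ranged from −0.36 to 0.11, Pcdhac2 from −0.21 to 0.046, Pcdhga12 from −0.59 to 0.0014, Pcdhgc4 from −0.88 to −0.35, Pcdhgc5 from −0.53 to 0.0016 and the Taf7 promoter from −0.48 to 0.14. The causes were not tested.

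Same-numbered tumors deviated from their group means with a correlation of −0.21 over 12698 promoters. With 2 libraries per group, WT and KO tumors of unlike number then correlate by the same amount with the other sign. This value does not tell whether the numbers carry a meaning. With a replicate block, 15 promoters and 10 regions passed instead of 2 and 19, and 0 members and 0 regions of the locus. With the crossed pairing, added after seeing the data, 34 promoters and 101 regions passed. Leaving out a library gave 1 to 221 promoters and 7 to 70 regions. Scaling by genome background gave 10 promoters (3 higher and 7 lower in KO, against 2 and 0), the fold 0 promoters and 8 regions (2 higher and 6 lower, against 18 and 1), no trend 0 promoters, a cover of 50% 9 regions, and windows of 500 bp, summits inside the window or a filter on low heights 4 promoters each. Unadjusted p-values below 0.05 numbered 541 with the fold and 482 without the trend. With 2 tumors per group, and heights only where a peak was called, closed promoters could not be compared.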
